A study of Homo sapiens with 6 samples.

Results

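The histone cluster genes are the genes whose names run from HIST1H to HIST4H, followed by the histone type that they encode. They were taken by that name pattern from a table of 57281 genes, of which 89 matched: 8 genes of linker histone H1, 22 of H2A, 26 of H2B, 17 of H3 and 16 of H4. Of the 89, 34 reached 10 normalized read counts in at least 3 of the 6 libraries and were tested, and 55 did not. The RNA came from HaCaT cells, a spontaneously immortalised human keratinocyte line. Every culture received TGF-β1 at 10 ng/ml for 24 h, and the groups differed in silymarin, a milk thistle extract. There were 3 libraries without it (the TGF-β1 libraries) and 3 with 31.25 µg/ml of it (the silymarin libraries), each from a biological replicate. No culture without TGF-β1 was compared, so the values say nothing of TGF-β1 itself. The line is 1 established line, and the p-values measure the spread between its 3 biological replicates in each group.

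Core histones H2A, H2B, H3 and H4 form the octamer around which DNA is wrapped, and the linker histone H1 binds where DNA enters and leaves it. Most of their genes lie in clusters, have no introns and are transcribed during S phase, when new DNA is packed into chromatin. Their messages are an exception among animal mRNAs: instead of a poly(A) tail they end just after a short stem-loop, which is bound by the stem-loop binding protein SLBP and cut with the help of the U7 snRNP. A part of the cluster genes can also be read through to a downstream poly(A) signal, and such polyadenylated histone messages are known from differentiating and resting cells. The libraries were made from poly(A)-selected RNA, so the values below concern polyadenylated histone transcripts or stem-loop messages carried over in the selection, which cannot be told apart here, and they do not measure the bulk of S phase histone mRNA.

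The stem-loop letters are shown because they mark where the usual histone message ends. In GENCODE 29 transcripts (build GRCh38), the motif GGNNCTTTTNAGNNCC, searched on the transcript's own strand, was found in 34 of the 89 genes: in 22 of the 34 tested genes and in 12 of the 55 below the minimum. The models of many genes, HIST1H1C among them, stop at the end of the coding part, so a missing match only says that the letters are not in the annotated transcript. Of the 89 genes, 53 were matched to this annotation by identifier and 36 by name, and the authors' own annotation release is not given in the sources used here. HIST2H2AA3 and HIST2H2AA4, both below the minimum, were matched to the same annotated gene, so its transcript is counted for both. Stem-loops of 5 genes described below are given with 5 bases on each side, 5′ to 3′ in DNA letters, with the 16 bases of the motif in capitals.
HIST3H2A: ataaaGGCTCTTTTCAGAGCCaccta
HIST1H2BC: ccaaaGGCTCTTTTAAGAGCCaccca
HIST1H4E: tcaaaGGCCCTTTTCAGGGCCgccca
HIST1H4I: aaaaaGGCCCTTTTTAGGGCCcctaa
HIST1H2AG: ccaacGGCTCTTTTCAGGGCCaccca
HIST3H2A carried the letters shared by most members with a match (18 genes), the HIST1H2BC form was found in 5 genes, the HIST1H4E form in 5, and the HIST1H4I and HIST1H2AG forms in 3 each. The annotated transcript ran on past the stem-loop by 390 bases in HIST3H2A, 116 in HIST1H2BC, 1022 in HIST1H4E, 212 in HIST1H4I and 1761 in HIST1H2AG. An annotated end downstream of the stem-loop by at least 100 bases, or a poly(A) signal (AATAAA or ATTAAA) in the last 50 bases of a transcript, was present in 22 of the 34 tested genes and in 9 of the 55 others.

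The promoters of the 4 histone cluster genes with the smallest p in the comparison below, and of HIST3H2BB, the divergent neighbour of HIST3H2A, are shown next. Each is the 150 bases before the transcription start in the RefSeq table of build GRCh38.p14, which held 61 of the 89 genes and 31 of the 34 tested. Capitals mark 3 motifs that were searched on both strands. TATAAA is a form of the box bound by the TATA-binding protein. CCAAT is bound by NF-Y and reads ATTGG on the other strand. ATTTGCAT is the octamer bound by POU2F1.
HIST1H1C, chr6:26056471-26056620, minus strand: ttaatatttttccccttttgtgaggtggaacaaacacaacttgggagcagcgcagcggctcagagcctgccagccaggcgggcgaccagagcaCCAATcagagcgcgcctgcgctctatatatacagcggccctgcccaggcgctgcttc
HIST1H2BC, chr6:26123927-26124076, minus strand: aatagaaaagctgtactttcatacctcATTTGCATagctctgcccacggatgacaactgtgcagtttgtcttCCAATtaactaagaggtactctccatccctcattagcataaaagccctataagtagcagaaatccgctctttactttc
HIST1H4E, chr6:26204460-26204609, plus strand: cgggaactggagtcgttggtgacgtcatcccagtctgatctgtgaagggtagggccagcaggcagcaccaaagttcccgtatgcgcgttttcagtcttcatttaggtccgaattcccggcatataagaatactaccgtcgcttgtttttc
HIST3H2A, chr1:228457874-228458023, minus strand: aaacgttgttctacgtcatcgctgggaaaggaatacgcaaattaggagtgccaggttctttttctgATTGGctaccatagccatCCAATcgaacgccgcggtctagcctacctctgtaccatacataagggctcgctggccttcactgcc
HIST3H2BB, chr1:228457953-228458102, plus strand: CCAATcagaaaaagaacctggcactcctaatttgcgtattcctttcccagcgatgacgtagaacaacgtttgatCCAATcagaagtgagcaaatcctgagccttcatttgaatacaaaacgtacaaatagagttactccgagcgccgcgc
The window of HIST1H4E held none of these 3 motifs. Over the 61 genes, TATAAA was present in 34 (55.7%), against 6.71% of all 35116 promoter windows of the same length. CCAAT was present in 51 (83.6%, against 23.5% of all windows): in every H1, H2A, H2B and H3 window, and in 3 of 13 H4 windows. The octamer was present in 19 (31.1%, against 0.988%), of which 14 were among the 18 H2B windows and 5 among the 14 H2A windows. For the 4 genes with 2 annotated starts, only the window at the lower coordinate was counted, and the other window of HIST1H3D, an H3 gene, holds an octamer as well. A match is a description of letters and was not tested for binding. The windows of HIST3H2A and HIST3H2BB share 71 bases read in opposite directions.

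Among the 34 tested genes, 8 were lower and 5 higher with silymarin at an adjusted p under 0.05 (limma on log2 of the normalized count plus 1, Benjamini-Hochberg over all 17296 tested genes), and 21 did not pass. Over all tested genes 34.2% were called, 18.2% lower and 16.0% higher. The histone cluster shares were 38.2% called, 23.5% lower and 14.7% higher, close to that background. Their median log2 fold change was -0.09, against 0.0044 over all tested genes. With 1 library left out it ran from -0.06 (without silymarin replicate 2) to -0.16 (without silymarin replicate 1, and likewise without TGF-β1 replicate 1). All values of 1 group lay above all values of the other for 18 of the 34 (12 lower, 6 higher), or 52.9%, against 47.1% of all tested genes. No called histone cluster gene changed by 2-fold or more. Of the 13 calls, 6 were kept under all 18 other settings tried: HIST1H1C, HIST1H2BC, HIST1H2BK, HIST1H3E and HIST1H4E, lower with silymarin, and HIST3H2A, higher. The other 7 calls were lost under at least 1 setting. One of the settings was the same fit at an adjusted p under 0.01, which these 7 fail by their adjusted p alone. Calls lost when 1 library is left out are given with the gene. Fewer cells that express a gene and less RNA of it per cell cannot be told apart in these bulk libraries, and the authors' scaling hides any change in total RNA.

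**Figure D1:**
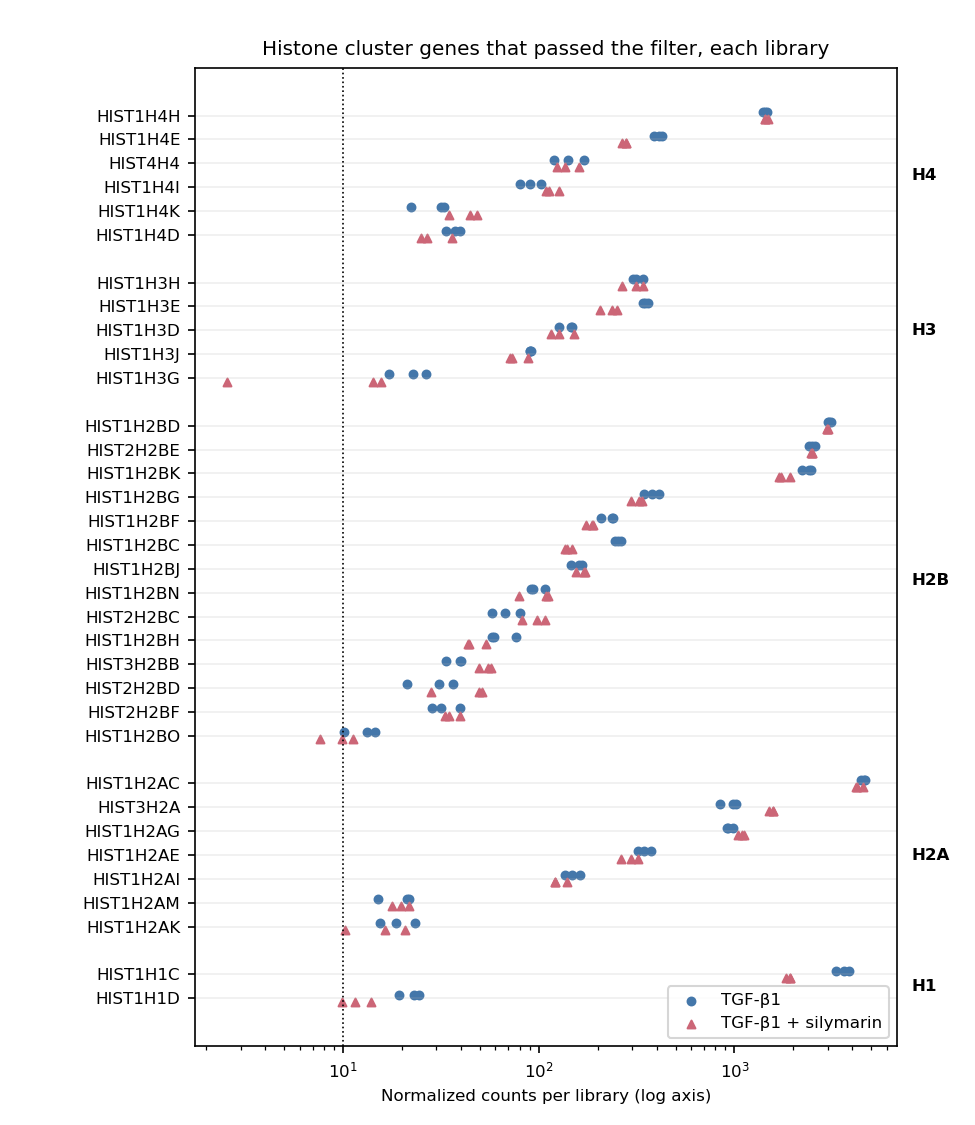
Normalized counts (log axis) of the 34 tested histone cluster genes in each of the 3 TGF-β1 libraries (circles) and 3 silymarin libraries (triangles), ordered by histone type and by level. The dotted line is the minimum of 10 normalized counts. The HIST1H1C symbols stand well apart between groups, while those of HIST1H2BD, HIST2H2BE and HIST1H4H nearly coincide.

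Linker histone messages were lower with silymarin. HIST1H1C, which encodes the linker histone H1.2, lies on the minus strand of chromosome 6 (26055787 to 26056428) and gave 3293, 3849 and 3611 normalized counts in the TGF-β1 libraries against 1933, 1840.2 and 1933 in the silymarin libraries. The lowest TGF-β1 library was well above the highest silymarin library. The log2 fold change was -0.91 (SE 0.060, adjusted p = 9.6e-08), and it lay between -0.97 and -0.86 in the other settings. HIST1H1D, which encodes H1.3, gave 23.0, 24.5 and 19.2 normalized counts without silymarin and 9.85, 11.5 and 13.8 with it. The groups did not overlap, and the log2 fold change was -0.87 (SE 0.26, adjusted p = 0.0188). That call rests on few counts: the adjusted p was 0.0646 without TGF-β1 replicate 1, 0.0799 without TGF-β1 replicate 2 and 0.0599 without silymarin replicate 1. The other 6 H1 genes stayed below the minimum, and 3 of them had 0 counts in every library. HIST1H1E, the highest of the 6, had a mean of 6.13 normalized counts over the 6 libraries. HIST1H1C made up 99.0% of all H1 cluster counts, so the H1 sum, 3619 ± 280 (SD, n = 3) without silymarin and 1921 ± 50.5 (SD, n = 3) with it, is in effect this 1 gene.

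Of the 7 tested H2A genes, 2 rose with silymarin and none fell. HIST3H2A, from the small cluster on chromosome 1 (228456979 to 228457873, minus strand), gave 848, 1022 and 985 normalized counts without silymarin and 1577, 1509 and 1579 with it. The silymarin libraries all lay above the TGF-β1 libraries, and within each group the spread was small beside the gap. Its log2 fold change was 0.71 (SE 0.070, adjusted p = 4.2e-06). HIST1H2AG, one of several HIST1 genes that encode the same H2A protein, gave 924, 989 and 915 without silymarin against 1099, 1115 and 1045 with it. The groups were apart by a narrow margin, with a log2 fold change of 0.20 (SE 0.060, adjusted p = 0.0168). Its adjusted p was 0.0757 without TGF-β1 replicate 1, 0.0869 without TGF-β1 replicate 3 and 0.0587 without silymarin replicate 1.

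HIST1H2AC held the largest share of the histone cluster counts (20.3%, in counts that are not per length) and did not pass the test. It gave 4420.0, 4652 and 4570.3 normalized counts without silymarin and 4244, 4524 and 4177 with it. The ranges overlapped, and the 95% interval of its log2 fold change ran from -0.18 to 0.03 (adjusted p = 0.26). Without silymarin replicate 2 this small difference passed the threshold, at -0.11 (adjusted p = 0.0144). It also passed in a fit that adjusts for GC content and length (-0.12, adjusted p = 0.0082). HIST1H2AE stood at 347 ± 27.2 against 293 ± 29.7 (SD, n = 3 each), a log2 fold change of -0.24 that missed the threshold (adjusted p = 0.0618) and passed it without silymarin replicate 3 (-0.31, adjusted p = 0.0261). HIST1H2AI, HIST1H2AK and HIST1H2AM, which encode the same protein as HIST1H2AG, had log2 fold changes of -0.22, -0.29 and 0.04 and did not pass. The HIST1H2AK value ran from -0.50 (without silymarin replicate 1) to -0.02 (without silymarin replicate 2). All exon bases of HIST1H2AK lie opposite HIST1H2BN, and 346 of the 393 exon bases of HIST1H2AM lie within HIST1H3J on the same strand, so reads of these genes may have been counted for either or for none.

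H2B genes moved in both directions: 4 of 14 tested fell, 2 rose and 8 did not pass. HIST1H2BC gave 255, 245 and 263 normalized counts without silymarin and 136, 148 and 139 with it. The 3 silymarin values sat close together, far below the TGF-β1 values. The log2 fold change was -0.85 (SE 0.092, adjusted p = 1.0e-05). HIST1H2BK gave 2449.6, 2399.6 and 2214 without silymarin and 1738, 1927 and 1683 with it. Here too the groups were apart, with a smaller log2 fold change of -0.40 (SE 0.063, adjusted p = 0.00024). HIST1H2BF and HIST1H2BG, which encode the same H2B protein as HIST1H2BC, changed less than it did. HIST1H2BF gave 207, 236 and 241 against 186, 189 and 174, a log2 fold change of -0.31 (SE 0.096, adjusted p = 0.0217). HIST1H2BG gave 381, 345 and 409.6 against 337, 325 and 295, a log2 fold change of -0.25 (SE 0.088, adjusted p = 0.0451). In both the groups were apart, but only just. The HIST1H2BF call was lost without TGF-β1 replicate 2 (adjusted p = 0.0889), without TGF-β1 replicate 3 (0.0994) and without silymarin replicate 3 (0.0642), and the HIST1H2BG call without TGF-β1 replicate 1 (0.118), TGF-β1 replicate 3 (0.200) and silymarin replicate 3 (0.143).

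The 2 H2B genes that rose were low in counts. HIST3H2BB, the divergent neighbour of HIST3H2A, gave 33.6, 39.9 and 39.4 normalized counts without silymarin and 54.7, 49.7 and 57.1 with it. The groups were apart, with a log2 fold change of 0.51 (SE 0.16, adjusted p = 0.0289). This call was kept only when silymarin replicate 2 was the library left out: leaving out any other gave an adjusted p between 0.0519 (TGF-β1 replicate 2) and 0.107 (TGF-β1 replicate 1), with 0.0531 without TGF-β1 replicate 3, 0.0764 without silymarin replicate 1 and 0.0859 without silymarin replicate 3. HIST2H2BC, annotated as a transcribed pseudogene, gave 67.2, 58.0 and 79.9 against 98.5, 107 and 82.2. Its lowest silymarin value was just above its highest TGF-β1 value, and its log2 fold change was 0.49 (SE 0.15, adjusted p = 0.0263). The adjusted p was 0.0661 without TGF-β1 replicate 1, 0.119 without TGF-β1 replicate 2, 0.0739 without silymarin replicate 1 and 0.0595 without silymarin replicate 2. On the opposite strand it shares 1989 exon bases with HIST2H2BD, another transcribed pseudogene, which stood at 29.5 ± 7.61 and 42.9 ± 12.9 (SD, n = 3 each) and did not pass (adjusted p = 0.15), except without silymarin replicate 2 (0.0111). Whether strand was used in counting is not given in the sources used here. Reads of the 2 pseudogenes may therefore be mixed.

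HIST1H2BD and HIST2H2BE, which together with HIST1H2BK held most H2B counts, did not pass, with narrow intervals around 0. HIST1H2BD gave 3024, 3121 and 3029 normalized counts without silymarin and 2959.7, 3019 and 2988 with it, with a 95% interval of the log2 fold change from -0.13 to 0.07. HIST2H2BE gave 2490.2, 2591 and 2409 against 2466, 2488 and 2491, with an interval from -0.11 to 0.10. The HIST1H2BD groups were apart by a few counts and the HIST2H2BE groups overlapped. Both intervals leave out the change measured for HIST1H2BK. Of the 6 other tested H2B genes, HIST1H2BH (64.4 ± 10.8 against 47.0 ± 5.72, SD, n = 3 each) missed the threshold at an adjusted p of 0.0602 and passed it without silymarin replicate 1 (0.0476). HIST1H2BJ, HIST1H2BN, HIST2H2BF and HIST1H2BO had log2 fold changes of 0.08, 0.01, 0.11 and -0.37 and did not pass.

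Of the 5 tested H3 genes 1 fell, and all 5 had negative log2 fold changes, of which that of HIST1H3H turned to 0.04 without silymarin replicate 2. HIST1H3E, which like the other tested HIST1H3 genes encodes the replication-coupled histone H3.1, gave 348, 342 and 363 normalized counts without silymarin and 252, 205 and 237 with it. Its TGF-β1 values were tight and all above the silymarin values. The log2 fold change was -0.60 (SE 0.091, adjusted p = 0.00019). HIST1H3G had a log2 fold change of -1.24 with a wide error (SE 0.48) and did not pass (adjusted p = 0.0637). It gave 26.5, 22.7 and 17.2 against 14.2, 2.55 and 15.6, so silymarin replicate 2 stood far below the other 2 silymarin libraries, at a value under 3 reads. The size rests on that library: without it the log2 fold change was -0.52 (adjusted p = 0.163), closer to 0 than those of HIST1H1C and HIST1H2BC. With silymarin replicate 1 or replicate 3 left out, the adjusted p was 0.0354 and 0.0200. HIST1H3J (90.3 ± 0.665 against 77.6 ± 9.60), HIST1H3D (141 ± 12.3 against 131 ± 17.9) and HIST1H3H (319 ± 19.2 against 306 ± 37.7; SD, n = 3 each) did not pass. All exon bases of HIST1H3D are also exon bases of AL031777.3, a gene on the same strand.

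Of the 6 tested H4 genes, which encode the same protein, 1 fell, 1 rose and 4 did not pass. HIST1H4E (chromosome 6, 26204552 to 26206038, plus strand) fell: it gave 387, 429 and 411 normalized counts without silymarin and 278, 268 and 280.4 with it. The groups were well apart, with a log2 fold change of -0.57 (SE 0.077, adjusted p = 7.5e-05). HIST1H4I rose, from 80.4, 89.7 and 102 to 109, 127 and 113, with a log2 fold change of 0.36 (SE 0.13, adjusted p = 0.043). The gap between its groups was small beside their spread, and the call was lost whenever a library other than TGF-β1 replicate 3 was left out: the adjusted p was 0.168 and 0.106 without TGF-β1 replicates 1 and 2, and 0.0562, 0.0975 and 0.0645 without silymarin replicates 1, 2 and 3. HIST1H4H did not pass at 1399, 1441 and 1469.5 against 1432, 1481 and 1440.1, with overlapping groups and a 95% interval of the log2 fold change from -0.10 to 0.13. HIST1H4K stood at 28.9 ± 5.77 and 42.5 ± 7.01 (SD, n = 3 each), apart but not past the threshold (adjusted p = 0.063), and passed it without silymarin replicate 3 (0.036). HIST4H4, the lone gene on chromosome 12, and HIST1H4D had log2 fold changes of -0.03 and -0.33 and did not pass.

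**Figure D2:**
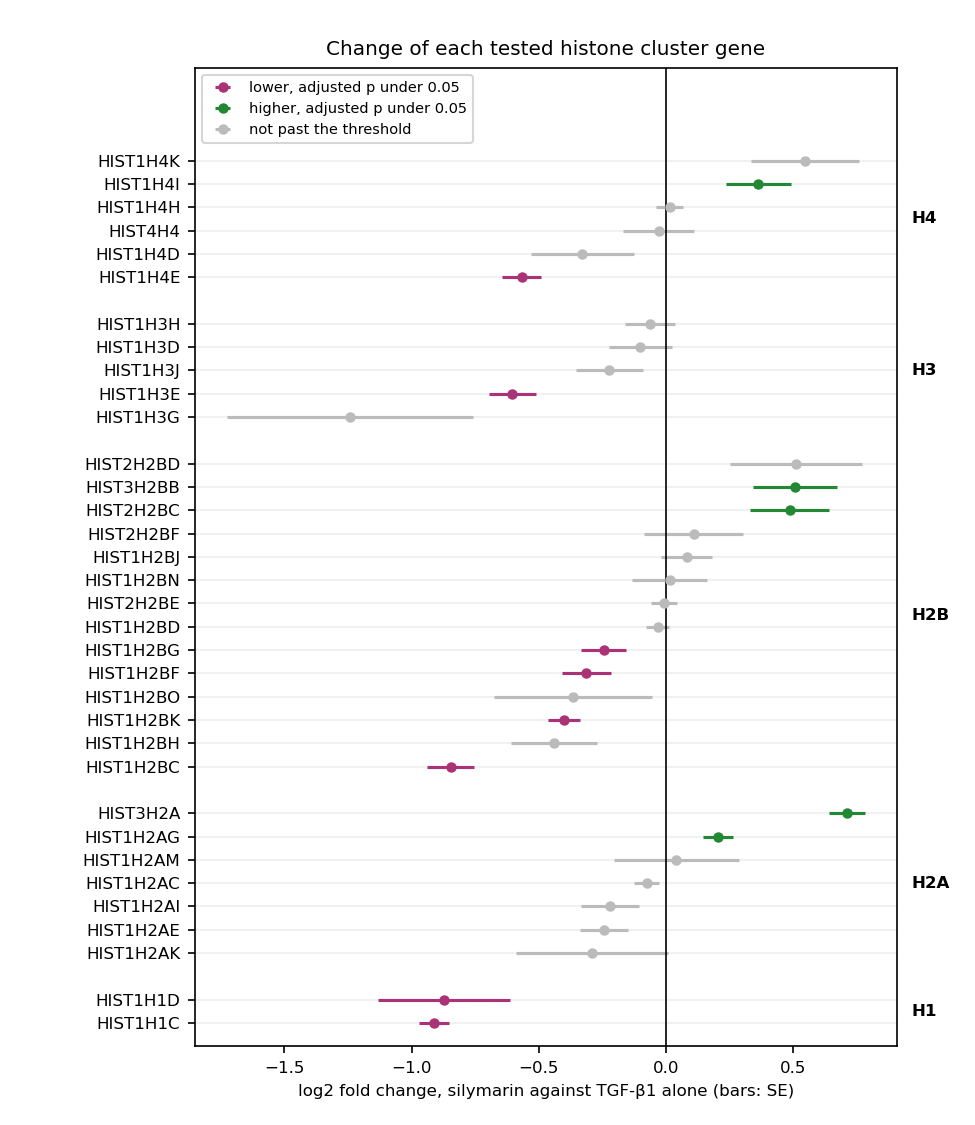
Log2 fold change (silymarin against TGF-β1 alone) of each of the 34 tested histone cluster genes, by histone type, with bars of 1 SE. Purple points are the 8 genes called lower, green points the 5 called higher and grey points the 21 that did not pass an adjusted p of 0.05. Both H1 genes lie near -0.9, and H2B and H4 genes lie on both sides of 0.

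Sums over all 89 genes by type also keep the genes that could not be tested. Over all types the sum was 23021 ± 696 without silymarin and 20666 ± 235 with it (SD, n = 3 each), a difference of -10.2% that was larger than the spread of either group. No test was made on sums. H1 differed by -46.9%. H2B was at 9285 ± 168 without silymarin and 8463 ± 183 with it (-8.86%), which came to -3.61% without HIST1H2BK. H2A was at 7003 ± 277 and 7431 ± 151 (6.11%), and without HIST3H2A the sign turned (-2.90%). H3 was at 943 ± 28.6 and 771 ± 95.8 (-18.3%). For H1, H2A, H2B and H3 the 3 sums of 1 group lay all above those of the other. H4 was at 2172 ± 77.5 and 2080.2 ± 15.3 (-4.22%), and its groups overlapped. A few genes set these sums: the 5 genes with the most counts held 67.6% of all histone cluster counts and the top 8 held 84.5%.

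**Figure D3:**
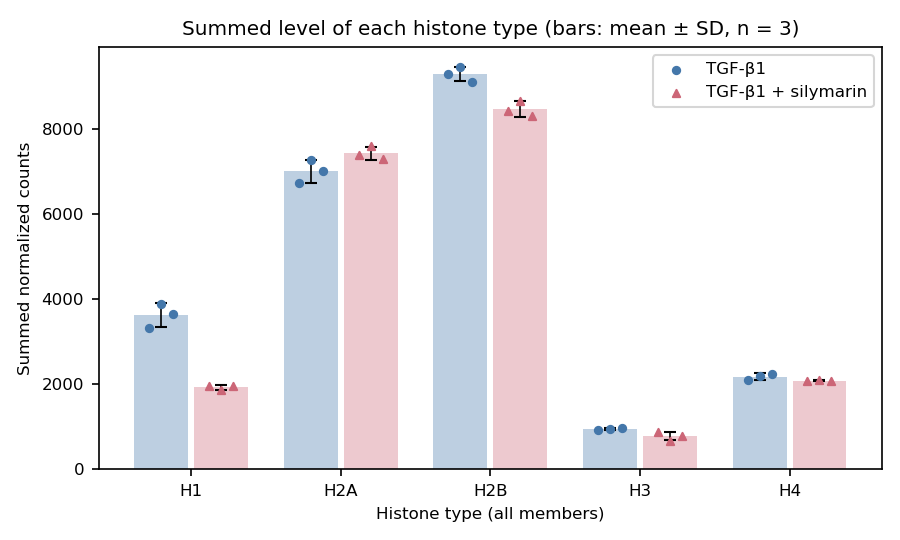
Summed normalized counts of all histone cluster genes of each type, with 1 symbol per library and bars for the mean and SD of 3 libraries. The H1 sum is 3619 without silymarin and 1921 with it, and the H4 sums of the 2 groups overlap.

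The genes below the minimum had little or no signal. Of the 55, 20 had 0 counts in all 6 libraries and 35 were detected at low values. A count of 0 allows up to 3 reads, or 2.60 to 3.82 normalized counts in the 5 libraries whose read numbers could be recovered, which covers counting error only. The highest were HIST1H2BL, HIST1H2AH, HIST2H4A, HIST1H1E and HIST2H4B, with means over the 6 libraries of 7.73, 7.63, 6.84, 6.13 and 6.07 normalized counts. HIST2H4A and HIST2H4B are near-identical copies: all stretches of 50 bases of their longest annotated transcripts occur in another histone cluster gene, so a read can match several genes. Of the 55, 13 shared at least 50% of such stretches, counting HIST2H2AA3 and HIST2H2AA4, which were matched to the same annotated gene. Among the 13 were also HIST2H3A and HIST2H3C (100% each), which had 0 counts in all 6 libraries. For such genes a low or 0 count may mean that reads were not assigned to them, which was not tested. Among the tested genes, at least 50% of such stretches were shared in HIST1H4K (100%), HIST1H2AM (86.3%), HIST1H3J (62.8%) and HIST1H2AI (62.3%), and none of these 4 was called. Of the 89, 18 are annotated as pseudogenes, and 2 of these, HIST2H2BC and HIST2H2BD, were tested.

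By cluster, the large HIST1 group (67 genes, 65 of them on chromosome 6) had 27 tested genes, of which 8 fell and 2 rose, with a median log2 fold change of -0.24. All 8 falls were in this cluster, which held 27 of the 34 tested genes. Over all tested genes 18.2% were called lower and 16.0% higher. HIST2 had 4 tested genes with 1 rise, HIST3 had 2 tested genes and both rose, and HIST4 had 1 that did not pass. With so few genes outside HIST1, the clusters were not compared by a test. Divergent neighbours, whose starts lie close together, had like values in some pairs and not in others. HIST3H2A and HIST3H2BB start 234 bases apart and both rose (0.71 and 0.51). HIST1H2BG and HIST1H2AE start 283 bases apart and had log2 fold changes of -0.25 and -0.24, of which the first passed. HIST1H2BC and HIST1H2AC start 219 bases apart, and their promoter windows share 55 bases, yet their values were -0.85 and -0.08, with 95% intervals of -1.04 to -0.65 and -0.18 to 0.03 that do not overlap. HIST1H2BJ and HIST1H2AG, at 292 bases, were at 0.08 and 0.20. HIST1H2BO (-0.37) starts 357 bases from HIST1H3J (-0.22) and 314 bases from HIST1H2AM (0.04), and none of these was called. Split by the annotated end, the 22 tested genes with a transcript end past the stem-loop or a poly(A) signal held 5 falls and 5 rises (median -0.02). The other 12 held 3 falls and no rise (median -0.27). Annotated models of some of the 12, HIST1H1C among them, stop at the end of the coding part and hold no 3′ end. The split therefore does not tell genes with a polyadenylated message from genes without one, and it was not tested.

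The genes that act on histone messages are given from lists of known factors. In the list for 3′ end processing and turnover, 4 of 23 tested genes rose and 1 fell (median log2 fold change 0.05), beside 16.0% higher and 18.2% lower over all tested genes, a background that holds for the lists that follow as well. SLBP, the protein that binds the stem-loop, stood at 634 ± 19.7 without silymarin and 758 ± 26.9 with it (SD, n = 3 each) and rose by 0.26 on the log2 scale (SE 0.063, adjusted p = 0.0064). ERI1, the exonuclease that trims histone message ends, rose by 0.52 (adjusted p = 0.00012), MIF4GD, an SLBP partner in translation, by 0.39 (adjusted p = 0.0016) and CDK9, the kinase of elongating RNA polymerase, by 0.21 (adjusted p = 0.0093). CSTF2, a subunit of the poly(A) cleavage factor CstF and the 1 gene of the list that fell (-0.22, adjusted p = 0.0384), was named after its value was seen. Its adjusted p was 0.131 without TGF-β1 replicate 1, 0.144 without TGF-β1 replicate 2, 0.112 without silymarin replicate 1 and 0.114 without silymarin replicate 3. NPAT, the coactivator at histone loci, was at 1271 ± 87.6 and 1202 ± 91.5 (SD, n = 3 each; adjusted p = 0.403). Without silymarin replicate 2, NPAT passed at -0.14 (adjusted p = 0.0349).

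Among transcription regulators of histone genes, 2 of 15 tested genes rose and 5 fell (median 0.0062). CCNE1, the cyclin E that drives entry into S phase, rose by 0.91 (adjusted p = 0.00024) and E2F1 by 0.79 (adjusted p = 0.0009), while E2F2 fell (-1.24, adjusted p = 0.0044) and so did CDK2, the partner of cyclin E (-0.28, adjusted p = 0.0062). Of 28 tested S phase DNA synthesis genes, 8 rose and 5 fell (median 0.08). CDC6, which licenses replication origins, rose by 0.87 (adjusted p = 7.2e-05), PCNA, the sliding clamp, by 0.33 (adjusted p = 0.0002) and the helicase subunit MCM2 by 0.63 (adjusted p = 0.00029), and RRM1, a subunit of ribonucleotide reductase, fell (-0.44, adjusted p = 0.00044). Of 22 tested chaperone and import genes, 4 rose and 4 fell (median 0.01). HJURP, the chaperone of the centromeric H3 variant, fell (-1.64, adjusted p = 2.8e-06), while NASP, which holds H3 and H4, rose by 0.37 (adjusted p = 0.00029) and NAP1L1, which holds H2A and H2B, by 0.39 (adjusted p = 0.00064). MCM2 is in both of these lists. The calls named for these 3 lists were kept when any 1 library was left out.

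The replication-independent variants, whose messages carry ordinary poly(A) tails, also split: of 12 tested genes 2 rose and 3 fell (median -0.08). H2AFZ, which encodes H2A.Z, stood at 1911 ± 38.9 without silymarin and 2618 ± 164 with it (SD, n = 3 each) and rose by 0.45 (SE 0.056, adjusted p = 3.3e-05). H2AFY, which encodes macroH2A1, rose by 0.14 (adjusted p = 0.0289). The linker variants H1FX (-0.32, adjusted p = 0.00064) and H1F0 (-0.12, adjusted p = 0.0493) fell, as did H2AFY2, which encodes macroH2A2 (-0.29, adjusted p = 0.0276). The calls of H2AFY, H2AFY2 and H1F0 were weak: each was lost without TGF-β1 replicate 1, 2 or 3, H2AFY and H1F0 also without silymarin replicate 1, and H2AFY2 and H1F0 without silymarin replicate 3, with adjusted p up to 0.115 for H2AFY, 0.113 for H2AFY2 and 0.178 for H1F0. H2AFX (0.12), H3F3A (-0.08) and H3F3B (-0.06) did not pass. Without silymarin replicate 2 all 3 did, at 0.17 (adjusted p = 0.012), -0.15 (0.0355) and -0.09 (0.0326). The log2 fold change of H1FX had a 95% interval of -0.44 to -0.20 and that of HIST1H1C one of -1.04 to -0.78.

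**Figure D4:**
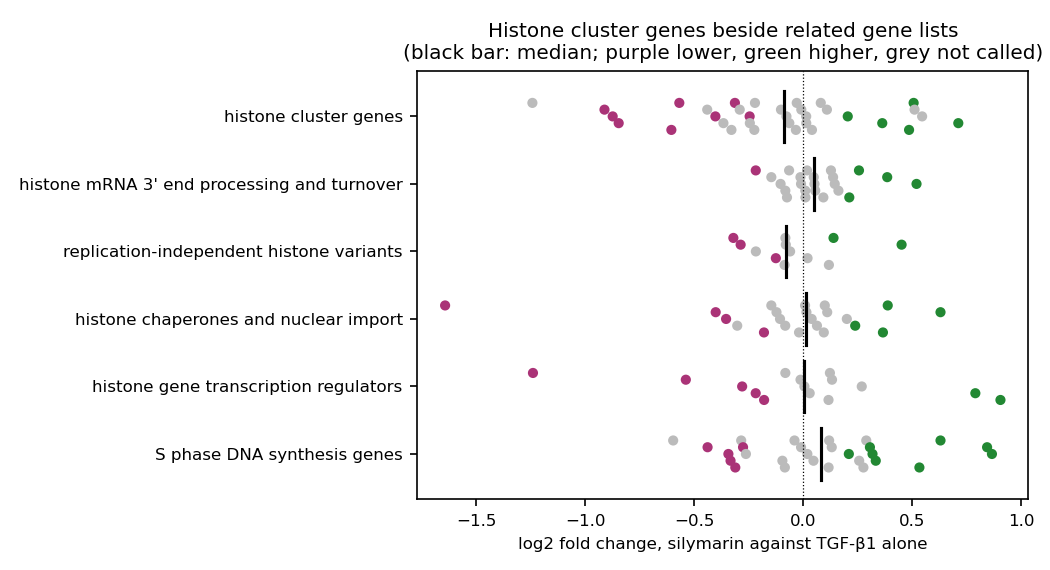
Log2 fold change (silymarin against TGF-β1 alone) of each tested gene in the histone cluster set and 5 lists of related genes, with a black bar at each list's median (purple called lower, green called higher, grey not called). The median of each list lies between -0.09 and 0.08, with genes on both sides of 0 in each.

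Read totals of 20240542 to 30279391 were recovered for 5 libraries, and 16967 to 17246 genes reached 10 normalized counts per library. Silymarin replicate 2 had the fewest recovered reads and stood apart from the other silymarin libraries on the second principal component. The deviation of its genes from the group mean went with GC content (Spearman -0.56 across genes, which are not independent). Silymarin replicates 1 and 3 gave 0.38 and 0.43, and TGF-β1 replicates 1, 2 and 3 gave -0.25, 0.17 and 0.10. Deviations from a group mean cancel within the group, so the GC trend cannot be assigned to 1 library. A fit that adjusts for GC content and length called 12 histone cluster genes lower and 6 higher, and 7400 genes in all against 5912 without it; the median GC content was 48.4% for the tested histone cluster genes and 48.0% for all tested genes. Of 8 keratinocyte markers, 7 fell, and their summed level ranged from 302819 to 310523 normalized counts without silymarin and from 189817 to 211371 with it. Of the 6 fibroblast markers only COL1A1 reached the minimum for testing, and it fell (-0.83), while DCN was at 0. The 4 melanocyte markers summed to 77.8 to 83.9 normalized counts without silymarin and 70.1 to 91.9 with it. TYR was at 0, and the 1 melanocyte marker that was tested was not called. The 4 leukocyte markers summed to 16.2 to 21.2 without silymarin and 25.2 to 38.1 with it. The 1 leukocyte marker that was tested was called higher (log2 fold change 0.74). The endothelial markers CDH5 and VWF summed to 120 to 134 without silymarin and 205 to 258 with it, and 1 of these 2 was called higher. The part of GC content or of these marker changes in the histone values was not tested.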

How the data were processed

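Per the labels' protocols, the mirVana kit was used for extraction, and an Illumina stranded kit for libraries from poly(A) RNA. TopHat2 2.1.1, featureCounts, Subread 1.5.2, cutadapt 1.15, bcl2fastq 2.18.12 and DESeq2 are named, per the submitters' processing notes. Genome build, annotation release and strand setting are not given in the sources used here. Deposited by the authors was 1 table of normalized counts, a signal in which each value is a whole multiple of 1 step per library (tolerance 0.0001 reads), the form of counts divided by a size factor. Whole reads could be recovered for 100% of values in 5 libraries. TGF-β1 replicate 3 had a step too near 1 to be accepted, so count tests left it out.

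The count test planned for raw counts was therefore replaced by limma 3.58.1 (R 4.3.3, trended prior) on log2(value + 1) over the 17296 genes that reached 10 normalized counts in 3 or more of the 6 libraries, with no covariate beside group. Fold changes on this scale understate the change of low genes. P-values were adjusted by Benjamini-Hochberg over all tested genes and called under 0.05. Count models (edgeR 4.0.16, DESeq2 1.42.0) for the 5 libraries with recovered reads, other scalings, filters, pseudocounts, a GC and length correction, a replicate block and leaving out each library were the alternatives. Counts simulated for this comparison used a dispersion of 0.00376 for every gene (17109 genes tested). Genes given a change were drawn only from those with higher mean counts, and were far fewer than the genes called in the data. In that simulation, 96 of 100 genes changed 1.5-fold and 100 of 100 changed 2-fold were called. Of the calls, 2.97% fell on unchanged genes. Such rates were not worked out by count level, so they cannot be carried over to histone cluster genes with low counts. The correlation of deviations between same-numbered libraries was -0.04, 0.04 and 0.02, so the replicate numbers were not treated as pairs.

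Every tested histone cluster gene is reported, those called or with the highest level in full, as are the 5 highest of those below the minimum; of each list of related genes, up to 4 called genes with the smallest p were named, and SLBP, NPAT, H2AFX, H2AFZ, H3F3A, H3F3B and H1F0 in any case. The genes and lists were chosen with earlier results of these data known. Stem-loops come from GENCODE 29 transcripts and promoters from RefSeq (GRCh38.p14); the former were matched by identifier or name, the latter by current or older symbol.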

Additional observations from a re-analysis of the deposited data

How the results depend on the processing

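Calls and log2 fold changes were recomputed under 18 other settings, in which some genes with low counts were not always tested. Sums were recomputed only under the 3 other scalings and with each of the 6 libraries left out. No called histone cluster gene and no summed level by type reversed, and 6 of 13 calls were kept throughout; of 22 called genes named from other lists, 17 kept their call wherever they were tested. The cause of the differences below was not tested.

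With DESeq2 on the recovered reads of 5 libraries, 3709 genes were called in all (5912 in the fit reported), and 5 histone cluster genes were called lower and 1 higher: 1 H1 and 2 H2B genes lower, 1 H2A higher, 0 H2B and 0 H4 higher. For related lists it called 0 lower for 3′ end processing, 1 lower and 1 higher for variants, 2 lower for chaperones, 1 lower for regulators, and 3 lower and 4 higher for S phase genes. edgeR on the same reads called 4647 genes in all, 2 H2B genes lower and 1 H2A gene higher, 1 variant in each direction, 2 chaperones lower and 2 regulators lower. At an adjusted p under 0.01, 3861 genes were called, with 5 histone cluster genes lower and 1 higher (1 H1 and 2 H2B lower, 1 H2A, 0 H2B and 0 H4 higher), 0 lower for 3′ end processing, 1 variant in each direction, 2 chaperones and 2 regulators lower, and 5 S phase genes higher. With at least 5 CPM in 3 libraries, 4647 genes were called in all. Of the histone cluster genes, 2 were higher (0 H2B, 0 H4) and 1 H1 gene was lower, and 0 regulators were higher and 3 lower. HIST1H1D, HIST1H4I, HIST2H2BC and HIST3H2BB were not tested under that filter, nor were the regulators CCNE1 and E2F1. Their missing calls there are therefore not failed tests. With no filter, 5630 genes were called in all. There, 3 histone cluster genes were higher (1 H2B, 0 H4), 1 H1 and 2 H3 genes lower, and 1 variant higher. The median log2 fold change was -0.22 over the 69 histone cluster genes then tested. The GC and length correction, with 7400 genes called in all, gave 2 H2A and 2 H3 genes lower and 2 H4 higher. It gave 3 lower and 7 higher for 3′ end processing and 4 regulators higher. HIST1H2AC (adjusted p = 0.0082), HIST1H2AE (0.0167), HIST1H2BH (0.0411) and HIST1H3G (0.0457) were newly called lower with it, and HIST1H4K (0.0407) higher. A pseudocount of 10 gave 2 H3 genes lower (5948 genes called in all), and library-size scaling 0 lower for 3′ end processing (6017 in all). With the replicate number as a block, 8 histone cluster genes were lower and 6 higher (2 H3 lower, 2 H4 higher, 1 variant higher), and 5678 genes were called in all; not every library correlated best with its own number.

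Calls over all genes moved as well when 1 library was left out. They ran from 4390 (TGF-β1 replicate 2 left out) to 7227 (silymarin replicate 2 left out), against 5912 in the fit reported. Histone cluster calls ran from 6 to 9 lower and from 1 to 4 higher. Only 1 was higher when replicate 1 of either group was dropped, where 4663 (TGF-β1) and 4995 (silymarin) genes were called in all. Lower calls ranged over 1 to 2 (H1), 0 to 1 (H2A), 2 to 5 (H2B), 1 to 2 (H3), 0 to 3 (3′ end processing), 1 to 5 (variants), 2 to 5 (chaperones) and 2 to 6 (regulators), and higher calls over 1 to 2 (H2A), 0 to 2 (H2B), 0 to 1 (H4), 1 to 3 (variants) and 2 to 4 (regulators).

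Signs turned only in 7 genes that were not called. Log2 fold changes over left-out libraries ran from -0.0042 to 0.0311 for HIST1H4H, -0.12 to 0.13 for HIST1H2AM, -0.07 to 0.17 for HIST1H2BN, -0.0336 to 0.0188 for HIST2H2BE, -0.15 to 0.10 for HIST4H4 and -0.14 to 0.0368 for HIST1H3H. With the GC and length correction HIST1H2BN was at -0.0095 and HIST1H4H at -0.0191, with library-size scaling HIST2H2BE was at 0.0118, and HIST2H2BF and HIST4H4 were at -0.0018 and 0.11 with DESeq2 and at -0.0003 and 0.12 with edgeR. Genes under about 50 counts carry the widest errors, which limits what the low histone genes can show.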
